A study of Mus musculus with 7 samples.

Results

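The genes described here are Hapln4, which encodes a hyaluronan link protein, and 9 genes of the same matrix. They are the link protein genes Hapln1, Hapln2 and Hapln3, the lectican genes Bcan, Ncan, Vcan and Acan, and the hyaluronan synthase genes Has2 and Has3. They were picked by gene symbol in the array annotation, and 10 of 19938 measured genes are members, each with 1 probe set. Hapln4 was singled out for its difference between the groups of this study, so that difference is given as a description. Its rank in p and its place in counts of genes past a threshold are not read as a test of it. The other 9 joined as its relatives and partners.

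The arrays measured RNA of pancreatic beta cells sorted at postnatal day 25 from dissociated islets of ICR mice. All mice carried insulin-Cre and the Rosa26-LSL-YFP reporter, in which Cre made under the insulin promoter switches on a yellow fluorescent protein for good, so the sort takes every cell in which that Cre has been active. One group of 3 mice had been weaned prematurely at day 18, and the other group of 4 mice was still suckling. Each mouse gave 2000 to 6000 sorted cells and 1 Affymetrix array. The labels mark all weaned arrays L13 and all suckling arrays L14, an unexplained code that cannot be told apart from weaning.

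Hyaluronan is a long sugar chain that synthases spin out at the plasma membrane. Lecticans, large proteoglycans that carry chondroitin sulfate, bind the chain through their amino-terminal domain, and link proteins clamp that bond. In brain the product is the dense net around some neurons, and in cartilage it is the aggrecan gel. In the pancreas, hyaluronan has been described around islets and along their vessels.

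Values are log2 intensities, and each gene is compared only with itself across arrays. As a guide to absence, transcripts of Xist and of 3 Y-linked genes read 1.80 to 3.15 log2 units on the 4 arrays each that lack their signal; this background range was chosen after the data were seen. Weaned replicate 12 lacked both signals, weaned replicate 4 and suckling replicates 9 and 12 had the Y-linked signal, and weaned replicate 5 and suckling replicates 2 and 11 had Xist. Markers of beta cells averaged 9.69 to 9.85 log2 units on the weaned and 9.71 to 9.82 on the suckling arrays (9 genes). Of these 9, 5 were lower and 4 higher in mean. Only Pdx1 had an unadjusted p under 0.05 by limma (0.33, SE 0.13), where 4.39% of all genes were higher at that level. Acinar markers, from the enzyme-secreting cells of the pancreas, averaged 3.45 to 5.45 log2 units on the weaned and 3.74 to 7.05 on the suckling arrays. All 10 had a lower mean in weaned mice, beside 9946 of all 19938 genes. None of the 10 had an unadjusted p under 0.05 by limma, and in 1, Ptf1a, both means lay in the background range. The median standard error of a difference over all genes was 0.14, and the number of arrays limits the precision. The labels do not say which mice shared a litter, nor whether L13 and L14 stand for litters. If they did, each group would be 1 litter, and the errors and p values here would not cover the spread between litters.

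Hapln4 was lower in every weaned mouse than in every suckling mouse. Its encoded protein, also called Bral2, is a link protein known in mouse brain for tying brevican into perineuronal nets. The probe set 10572282 read 5.11, 5.06 and 5.42 log2 units in weaned replicates 4, 5 and 12, against 6.89, 6.87, 6.85 and 6.92 in suckling replicates 2, 9, 11 and 12. The groups did not overlap, and the gap between the highest weaned and the lowest suckling array was 1.43 log2 units. On the linear scale of the deposited values this was 34.5, 33.3 and 42.9 in weaned mice, against 119, 117, 115 and 121 in suckling mice. The weaned mean was thus 31.3% of the suckling mean. Averaged as log2 values, Hapln4 stood at 5.20 ± 0.20 (SD, n = 3) in weaned and 6.88 ± 0.029 (SD, n = 4) in suckling mice, a difference of -1.69 (SE 0.12), or 3.22-fold lower in weaned mice. In bulk RNA of sorted cells, fewer cells that make a transcript and less of it per cell cannot be told apart.

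**Figure D1:**
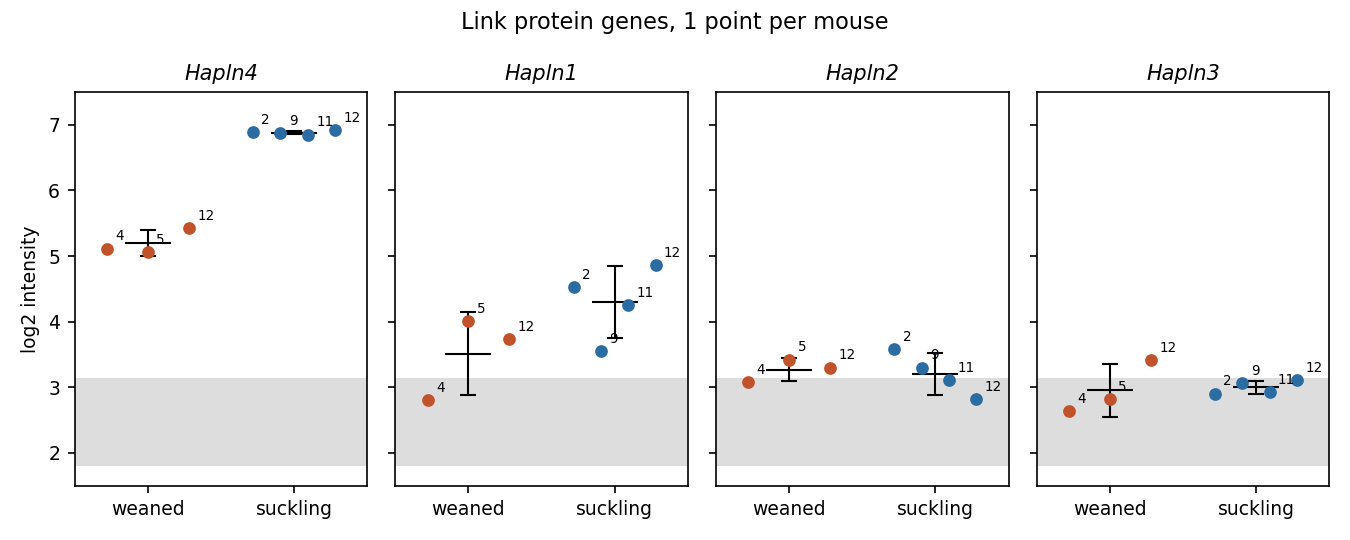
Log2 intensity of the 4 link protein genes in weaned (left) and suckling (right) mice. Each point is 1 mouse with its replicate number, black bars are the mean and SD, and the grey band is the background range of 1.80 to 3.15. Hapln4 separates the groups without overlap, while Hapln1, Hapln2 and Hapln3 overlap.

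The spread of Hapln4 within groups is given as a description. The suckling arrays spanned 0.068 log2 units, and the weaned arrays 0.37 log2 units. By limma Hapln4 ranked 1 of all genes in p, an order that favours genes with a small spread within groups, so nothing is read from its spread. In size of difference it ranked 12 among genes lower in weaned mice.

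Acinar signal, which differed widely between mice, was set beside Hapln4. The acinar mean differed by 3.31 log2 units among the 4 suckling arrays, over which Hapln4 moved by 0.068. With the acinar mean as a covariate the difference was -1.62, and without suckling replicates 2 and 9, which carry the most acinar signal, it was -1.69. What acinar or other cells among those sorted contribute to the Hapln4 difference was not tested.

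**Figure D2:**
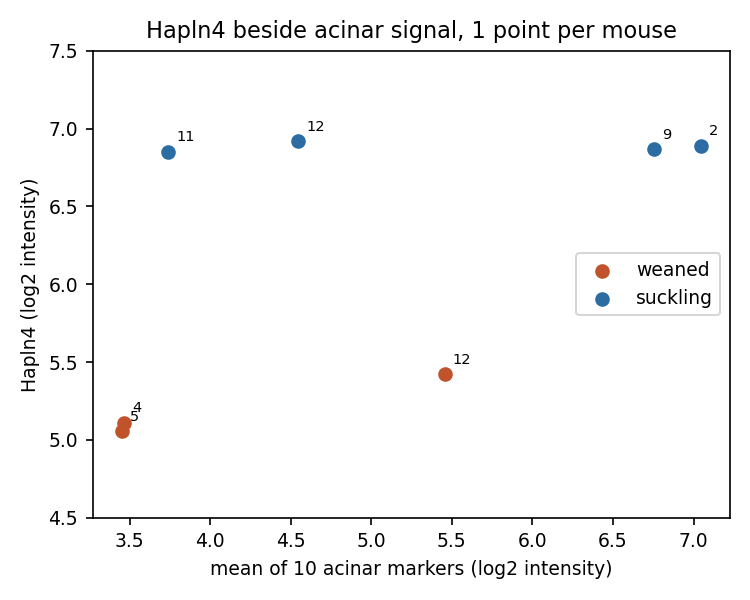
Hapln4 (vertical, log2 intensity) beside the mean of 10 acinar markers (horizontal, log2 intensity), with 1 point per mouse and its replicate number. The suckling mice lie at 6.85 to 6.92 for Hapln4 over acinar means of 3.74 to 7.05, and the weaned mice lie at 5.06 to 5.42 over 3.45 to 5.45.

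None of the other 9 members passed the threshold, an adjusted p of 0.05 by limma over all genes. With Hapln4, 1 of 10 members passed, beside 0.0150% of all genes (3 of 19938), and nothing is read from that count because the contrast chose Hapln4. The median difference of the other 9 was 0.062, beside 0.00047 over all genes, with 5 higher and 4 lower in mean. In 5 members, Hapln3, Bcan, Vcan, Acan and Has2, both group means lay within the background range, and no difference is given for these. The median and the counts of higher and lower members include these 5, so nothing is read from them. The groups overlapped in all 9.

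Hapln1 encodes the cartilage link protein, which binds aggrecan and versican. It read 2.80, 4.01 and 3.73 log2 units in weaned replicates 4, 5 and 12, against 4.53, 3.55, 4.25 and 4.86 in suckling replicates 2, 9, 11 and 12. Both groups were widely spread and overlapped, with 1 weaned array within the background range. The mean was 3.51 ± 0.63 (SD, n = 3) in weaned and 4.30 ± 0.55 (SD, n = 4) in suckling mice. The difference of -0.78 (SE 0.34, 95% interval -1.55 to -0.016) had an unadjusted p of 0.0463 and missed the threshold (limma, adjusted p = 0.651). Leaving out weaned replicate 4 gave -0.43, and leaving out suckling replicate 9 gave -1.03.

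Hapln2 encodes a link protein, Bral1, known at the nodes of myelinated axons. It read 3.07, 3.42 and 3.30 log2 units in weaned mice, against 3.58, 3.30, 3.11 and 2.82 in suckling mice. On 3 arrays it lay in the background range. The weaned values lay inside the suckling span, with a difference of 0.062 (SE 0.18, 95% interval -0.34 to 0.47, limma adjusted p = 0.959). Hapln3, the link protein with a wider tissue range, read 2.64, 2.82 and 3.41 in weaned mice, against 2.90, 3.06, 2.92 and 3.11 in suckling mice. Only weaned replicate 12 exceeded the background range.

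Of the lecticans, Ncan, which encodes the brain proteoglycan neurocan, was above the background range on every array. It read 3.57, 3.83 and 3.24 log2 units in weaned mice, against 3.61, 3.34, 3.58 and 3.16 in suckling mice. The groups overlapped over most of their span, and the difference was 0.12 (SE 0.17, 95% interval -0.26 to 0.50, limma adjusted p = 0.901). Bcan encodes brevican, the lectican that Hapln4 is known to partner in brain. It read 3.18, 2.93 and 3.07 in weaned mice, against 3.04, 3.39, 2.93 and 3.16 in suckling mice, at or near the top of the background range in both groups.

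Vcan encodes versican, a lectican of mesenchyme and vessel walls. It read 2.57, 2.98 and 2.30 log2 units in weaned mice, against 2.98, 2.79, 2.80 and 2.66 in suckling mice, within the background range on all 7 arrays. Acan encodes aggrecan, the lectican of cartilage. It read 3.07, 2.79 and 3.23 in weaned mice, against 2.76, 2.68, 2.87 and 3.02 in suckling mice. Here too only weaned replicate 12 lay above the background range.

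The synthases extrude the hyaluronan chain itself. Has2, the main synthase of the embryo, read 2.36, 2.21 and 2.16 log2 units in weaned mice, against 2.35, 2.01, 1.98 and 2.24 in suckling mice, within the background range on all 7 arrays. Has3 was above that range on every array, at 3.84, 3.89 and 3.64 in weaned mice, against 3.63, 3.87, 3.67 and 3.70 in suckling mice. The groups overlapped, and the difference was 0.072 (SE 0.12, 95% interval -0.19 to 0.33, limma adjusted p = 0.917).

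**Figure D3:**
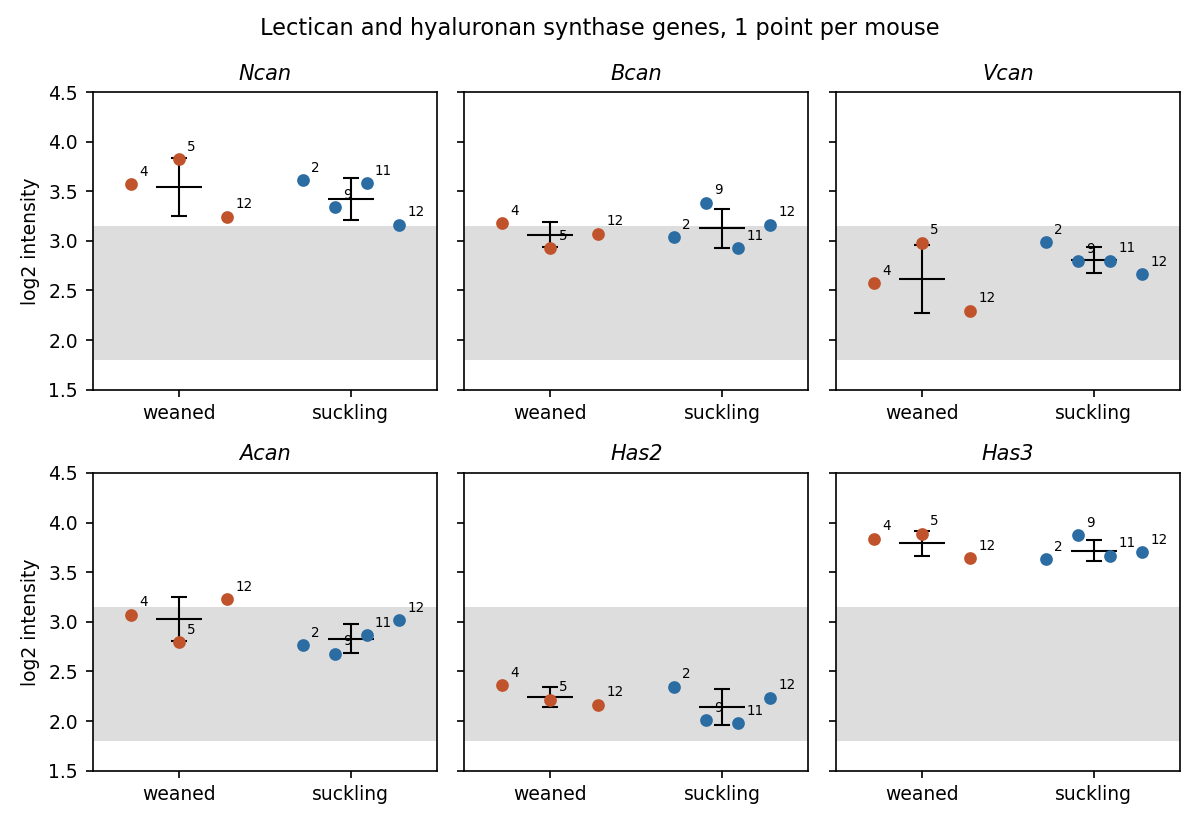
Log2 intensity of the 4 lectican and 2 hyaluronan synthase genes in weaned (left) and suckling (right) mice. Each point is 1 mouse with its replicate number, black bars are the mean and SD, and the grey band is the background range of 1.80 to 3.15. The groups overlap in each of these genes, and Vcan and Has2 lie in the band on all 7 arrays.

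Each link protein gene sits beside a lectican gene in the mouse genome, a feature the choice of members did not use. By the RefSeq order of assembly GRCm38.p6, Hapln4 is next to Ncan on chromosome 8, Hapln2 is next to Bcan on chromosome 3 and Hapln3 is next to Acan on chromosome 7. Hapln1 and Vcan lie on chromosome 13 with 1 annotated gene between them. Coordinates are left out because no build is named for the probe sets. In the pair on chromosome 8 the link protein gene differed by -1.69 and the lectican gene by 0.12.

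The wider surroundings of Hapln4 were also measured. Among the 5 annotated genes on each side, 7 of 10 were measured, and their differences ran from -0.18 to 0.12, with limma adjusted p of 0.815 to 0.949. On one side, Tm6sf2, a gene of lipid export known from liver and adjacent to Hapln4, read 3.81, 3.92 and 3.77 log2 units in weaned mice, against 3.70, 4.08, 3.99 and 4.28 in suckling mice. Its groups overlapped, with a difference of -0.18 (SE 0.14). Beyond it were Sugp1, a splicing factor gene (-0.070, SE 0.16), Mau2, a cohesin loader gene (-0.095, SE 0.13), and Gatad2a of the NuRD complex (-0.17, SE 0.15). On the far side of Ncan were Rfxank, a regulator of MHC class II genes (-0.055, SE 0.11), and Nr2c2ap (-0.13, SE 0.27). The groups overlapped in each of the 7 neighbours.

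**Figure D4:**
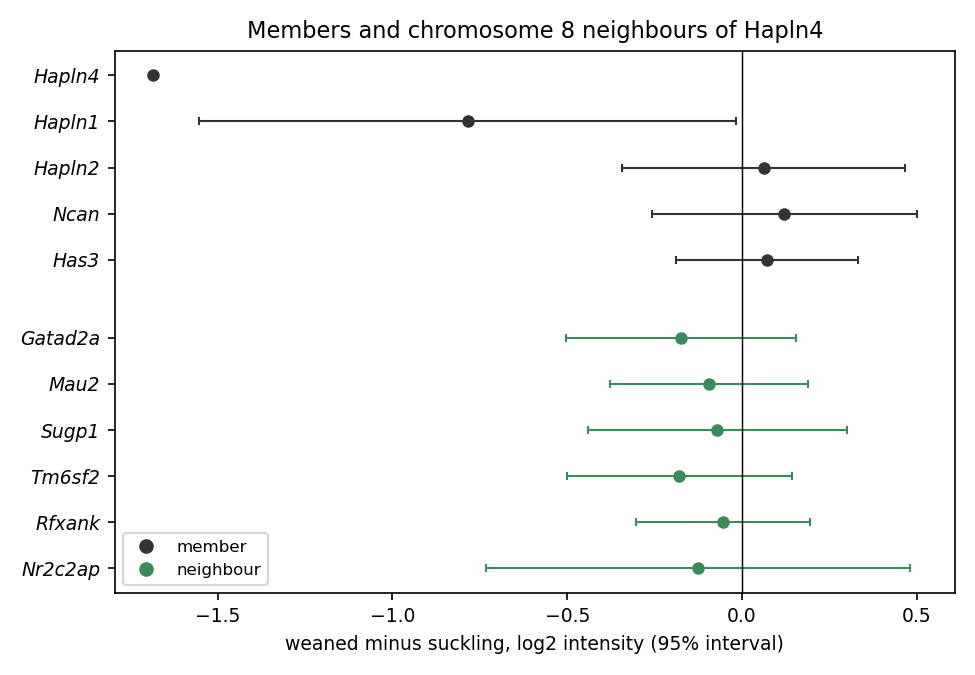
Weaned minus suckling difference in log2 intensity with its 95% interval from limma, for the 5 members with a group mean above the background range (top) and 6 neighbours of Hapln4 on chromosome 8 (bottom); Ncan, the other measured neighbour, stands among the members. Hapln4 lies at -1.69, and is drawn without an interval because it was chosen from this contrast. The other members lie between -0.78 and 0.12, and the 6 neighbours at the bottom between -0.18 and -0.055.

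Genes that make, cut or bind hyaluronan were followed as a list of 25, of which 24 were measured. None passed the threshold by limma; 3 had an unadjusted p under 0.05 (12.5%, beside 7.58% of all genes), 1 higher and 2 lower, where 4.39% of all genes were higher and 3.19% lower at that level. The groups did not overlap in 4 of the 24, beside 7.32% of all genes. The median difference was 0.014, and 5 of the 24 had both group means at or below 3.15. Cd44, the main cell surface receptor of hyaluronan, read 5.13, 5.38 and 5.15 log2 units in weaned mice, against 5.57, 6.0, 5.84 and 5.89 in suckling mice. Its groups did not overlap, and it differed by -0.60 (SE 0.13, limma adjusted p = 0.343). Cemip2 encodes a cell surface protein described as taking part in the breakdown of long hyaluronan. It read 6.56, 6.27 and 6.02 in weaned mice, against 4.88, 5.91, 5.41 and 5.47 in suckling mice, also without overlap, and differed by 0.87 (SE 0.23, limma adjusted p = 0.472). Habp4, whose product binds hyaluronan and RNA, differed by -0.46 (SE 0.14), and Hyal2, a hyaluronidase gene, by 0.23 (SE 0.11).

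Ligands of the lecticans and the proteases that cut them made a list of 17, of which 16 were measured. None passed by limma, and 2 had an unadjusted p under 0.05 (12.5%, beside 7.58% of all genes), Tnr higher and Adamts5 lower. The groups did not overlap in 2, Adamts5 and Cspg4 (12.5%, beside 7.32% of all genes). The median was -0.077, with 13 lower and 3 higher in mean, and 8 of the 16 had both group means at or below 3.15. Tnr encodes tenascin-R, which crosslinks lecticans in perineuronal nets. It read 5.14, 5.65 and 4.70 log2 units in weaned mice, against 4.53, 4.29, 4.56 and 4.89 in suckling mice, with overlap, and differed by 0.60 (SE 0.22, limma adjusted p = 0.611). Cspg4, a proteoglycan gene of pericytes and glial precursors, differed by -0.22 (SE 0.11). The aggrecanase gene Adamts5 and the related Adamts15 lay in the background range on all arrays, so no difference is given for them.

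Enzymes that build the chondroitin sulfate chains of lecticans made a list of 20, all measured. None passed by limma, and 4 had an unadjusted p under 0.05 (20%, beside 7.58% of all genes), 2 in each direction, where 4.39% of all genes were higher and 3.19% lower. The groups did not overlap in 3 of the 20, beside 7.32% of all genes, and the median was 0.036. In 4 of the 20, both group means lay at or below 3.15. Ust, a sulfotransferase of these chains, read 4.19, 4.73 and 4.31 log2 units in weaned mice, against 3.36, 3.65, 3.51 and 4.25 in suckling mice. Suckling replicate 12 reached into the weaned span, and the difference was 0.72 (SE 0.22, limma adjusted p = 0.547). Chpf2, a chondroitin polymerizing factor gene, differed by 0.37 (SE 0.12). The sulfotransferase gene Chst11 differed by -0.34 (SE 0.12) and Csgalnact2, whose product starts the chain, by -0.33 (SE 0.15).

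**Figure D5:**
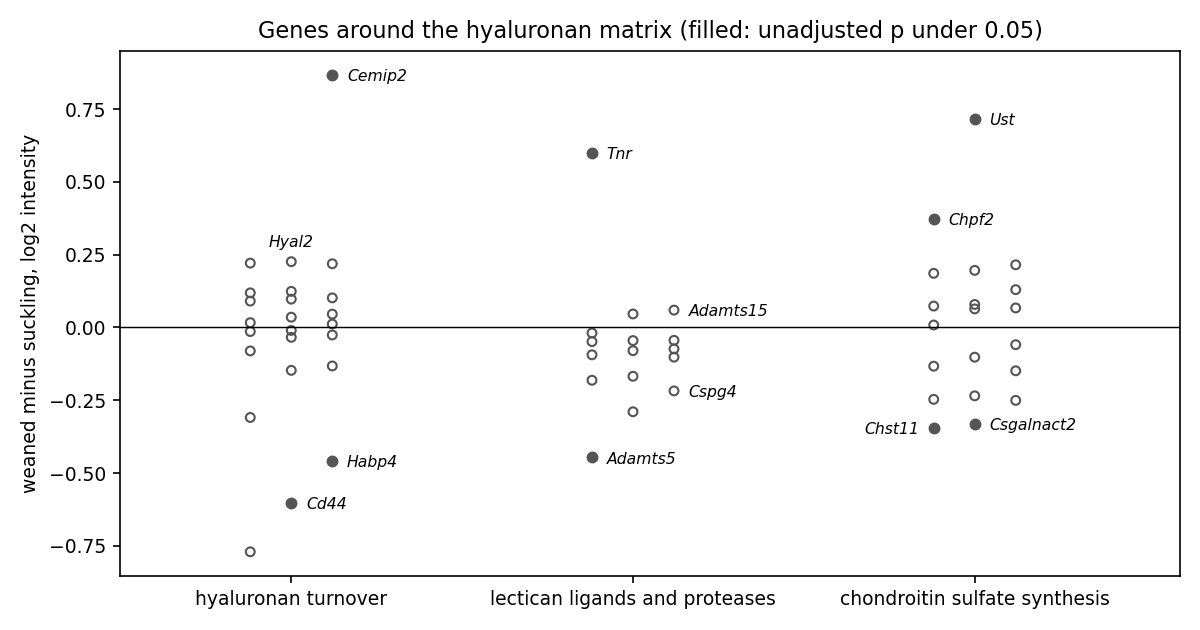
Weaned minus suckling difference in log2 intensity (vertical) of 24 genes of hyaluronan turnover, 16 of lectican ligands and proteases and 20 of chondroitin sulfate synthesis; each symbol is 1 gene. Filled symbols have an unadjusted p under 0.05 by limma; the values run from -0.77 to 0.87 and none passes the threshold.

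Markers of other cells that could be among those sorted were followed as lists. The mean of 3 alpha-cell markers was 6.75 to 7.29 log2 units on the weaned and 7.08 to 7.33 on the suckling arrays. For 5 delta and PP cell markers it was 7.97 to 8.15 and 7.81 to 8.17. For 4 ductal markers it was 4.67 to 5.15 and 4.71 to 5.72, and for 7 leukocyte markers 3.08 to 3.33 and 3.12 to 3.36. Of the 4 ductal markers, 2 were lower and 2 higher in mean, with Muc1 at -0.65 (SE 0.20). The glucagon gene Gcg averaged 11.9 in weaned and 12.1 in suckling mice. The mean of 8 mesenchymal markers was 3.11 to 3.32 log2 units on the weaned and 3.17 to 3.63 on the suckling arrays. Of these 8, 5 were lower and 3 higher in mean. By limma 2 had an unadjusted p under 0.05, Col1a2 of collagen I (-0.29, SE 0.12) and the pericyte gene Rgs5 (-0.54, SE 0.19). Both were lower in weaned mice, where 3.19% of all genes were lower at that level. Rgs5 lay in the background range on 5 arrays, including every weaned one. Col1a1, also of collagen I, differed by 0.037 (SE 0.12). Pdgfra and Lum lay at background on all arrays. The mean of 5 glial markers was 3.05 to 3.22 on the weaned and 3.10 to 3.37 on the suckling arrays. For 5 neuronal markers it was 3.93 to 4.08 and 4.02 to 4.40, and for 7 endothelial markers 3.15 to 3.32 and 3.08 to 3.44. Both group means lay at or below 3.15 for 3 of 5 glial, 1 of 5 neuronal and 3 of 7 endothelial markers. The same held for 4 of 7 leukocyte and 3 of 8 mesenchymal markers. Of the 5 neuronal markers, 3 were lower and 2 higher in mean. Tubb3, a neuronal tubulin gene, differed by -0.79 (SE 0.36, limma adjusted p = 0.662), with overlap between the groups. Th, the tyrosine hydroxylase gene, was above the background range on every array and differed by 0.12 (SE 0.17). The weaned and suckling spans overlapped in each of these lists, and their part in the differences of single matrix genes was not tested.

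Other genes were ranked by how close their profile was to that of Hapln4. Likeness was measured as the root mean square distance between profiles over the 7 arrays, each centred on its own mean, which had a median of 0.86 log2 units over all genes. The 5 nearest genes were led by Pde10a (0.42), a cyclic nucleotide phosphodiesterase gene, and the long non-coding RNA AI506816 (0.45). Pde10a read 5.40, 4.60 and 5.28 log2 units in weaned mice, against 6.0, 6.03, 5.94 and 6.17 in suckling mice. They were followed by Zfp42 (0.46), a zinc finger gene of pluripotent cells, the olfactory receptor gene Olfr113 (0.48), and Nrgn (0.48), which encodes the calmodulin-binding neurogranin. Olfr113 lay at or below the top of the background range on 6 of the 7 arrays, and Zfp42 on 2. Nrgn read 3.42, 3.29 and 3.58 in weaned mice, against 4.23, 4.23, 4.58 and 3.92 in suckling mice. Lower values in weaned mice follow from the choice of genes close to Hapln4. Among the members Hapln1 was the nearest, at 0.66, with 253 other genes nearer, and Ncan the farthest, at 0.94.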

How the data were processed

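The deposited intensity values, 1 per probe set and array, were made by the authors with RMA and Partek 6.6, per the submitters' processing notes, which give no order or settings. Per the labels' protocols, RNA was amplified with the Ovation Pico System V2, which adds scatter that 1 array per mouse cannot separate. Values ran from 1.45 to 12755, a linear scale, so log2 was taken.

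Of 35556 probe sets, 21789 carry 1 gene symbol, 1621 several and 12146 none. Of the 21789, 21698 were matched to a RefSeq gene ID and took its symbol, whether or not it differed. The brightest probe set stood for each of 999 genes with several, which left 19938 genes, without a filter. Weaned was compared with suckling by limma 3.58.1 in R 4.3.3 (lmFit, eBayes), two-sided, with Benjamini-Hochberg adjustment over all genes, and checked on simulated data.

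The members and lists were chosen with earlier results of these data known. Named were all members, the 5 genes on each side of Hapln4, the 2 members of each wider list with the highest and the 2 with the lowest limma statistic, and the 5 genes nearest in profile. Alternatives covered the prior, normalization, filter, probe sets, array weights, an acinar covariate, thresholds and arrays left out. Hyal1, Fbn1 and 10 marker genes were not analysed here.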

Additional observations from a re-analysis of the deposited data

Results flagged for a closer look

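Of 43 sets of suckling values checked for 1 array apart from the other 3, 2 stood out, and chance gives about 1 in 20 groups. Olfr113, one of the genes nearest to Hapln4 in profile, was 3.47 log2 units in suckling replicate 12, against 2.86 to 2.91 in the other suckling mice, which lie in the background range. The mean of 3 alpha-cell markers was 7.33 log2 units in suckling replicate 2, against 7.08 to 7.10 in the other suckling mice.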

How the results depend on the processing

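The count of all genes past the threshold by limma was 3 and depended on the setting. It was 9 with an intensity trend and robust prior and 9 with all probe sets on their own, 8 with genes above the median level, 6 with arrays centred on their medians, 5 with quantile normalization and 5 when probe sets of 1 gene were averaged. It was 7 at an adjusted p of 0.1 and 1512 at an unadjusted p under 0.05. With 1 array left out it ran from 1 to 3, and without suckling replicates 2 and 9, an alternative added after the data were seen, it was 0 by limma, with 1089 at an unadjusted p under 0.05. The count of members past the threshold was 1, Hapln4, and ran from 1 to 1 with 1 array left out; it was 2 at an unadjusted p under 0.05, with Hapln1, and 0 without suckling replicates 2 and 9. Hapln4 was chosen from this contrast in these arrays, so these counts lend it no support. Hapln4 differed by -1.80 to -1.62 over 16 alternatives, and by -1.69 without suckling replicates 2 and 9. Over 151 values of members under alternatives, each moved by less than 1 SD between replicates. Part of these could not move. The prior and the filter change only the p, and the probe set alternatives leave the difference of a gene with 1 probe set as it is. Among the members with a group mean above the background range, the sign changed with some array left out for Hapln2 and Ncan, whose differences lay near 0. No paired analysis was made, because the labels pair no mice across the groups. Dim signal limits 5 of 10 members, whose group means lie within the background range. Of the other members, only Hapln4 passed the filter for genes above the median level. Hapln2 lay in the background range on 3 arrays, and Ncan read as low as 3.16, beside a top of that range of 3.15. Small differences in such dim genes say little.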
